A study of Mus musculus with 22 samples.

Results

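Anti-IL-2 treatment was compared with control IgG in donor CD8 T cells sorted from the spleen after allogeneic haematopoietic cell transplantation in mice. The comparison rested on 6 of the 22 libraries of the series: 3 from recipients given anti-IL-2 and 3 from recipients given IgG, 1 of each in the batches labelled 181201, 181212 and 190306. They were chosen by their labelled cell type, tissue and treatment, and no library was relabelled. In both groups, lethally irradiated wild-type (WT) BALB/c recipients were injected with marrow and spleen cells from WT C57BL/6 donors. The anti-IL-2 monoclonal antibody or control IgG was given on alternate days, starting on day 0 and ending on day 6, and donor-type CD8 T cells were sorted by flow cytometry from the spleen on day 7. The age and sex of the mice, and whether a library came from 1 animal or from a pool, were not given in the sources used here, so p-values measure only the spread between libraries. For the 3 IgG libraries the free-text description named colon while the source name and the tissue label named spleen. The description named the other tissue in all 5 CD8 IgG libraries of the series, those of the gut included. The source name and tissue label were used. PD-L1-deficient recipients, which the title of the series also names, were not analysed here.

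IL-2 is a cytokine made mainly by activated T cells. It signals through a receptor of an alpha chain (Il2ra), which raises affinity, and the beta and gamma chains (Il2rb, Il2rg), which activate the kinases JAK1 and JAK3 and the transcription factor STAT5. In CD8 T cells, strong IL-2 signalling is known for driving effector and cytotoxic differentiation, and for restraining the TCF1-dependent memory and follicular programmes. STAT5 also induces Il2ra itself and the feedback inhibitors Cish and Socs2, which makes these genes common readouts of the pathway.

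Promoter windows are shown for Cish, a STAT5 target in the comparison, and for Isg15 and Ifit1, members of the interferon response described further on. The last 2 were picked for their motifs and not by the size of their change. The windows run from 250 bases before the annotated start to 50 bases after it, 5′ to 3′ on the gene's strand, from RefSeq on GRCm38.p6. Capitals mark TTCNNNGAA, the STAT-binding pattern called GAS, in Cish, and the interferon response pattern called ISRE, GAAA repeated after 2 free bases, on either strand in Isg15 and Ifit1, with overlapping matches counted separately. Cish lies at chr9:107296409-107296708 on the plus strand, and its 2 GAS matches begin at the annotated start. Isg15 lies at chr4:156200769-156201068 on the minus strand, and its 3 overlapping ISRE matches begin 78 bases before the start. Ifit1 lies at chr19:34640639-34640938 on the plus strand, and its 2 ISRE matches begin 104 bases before the start.
Cish: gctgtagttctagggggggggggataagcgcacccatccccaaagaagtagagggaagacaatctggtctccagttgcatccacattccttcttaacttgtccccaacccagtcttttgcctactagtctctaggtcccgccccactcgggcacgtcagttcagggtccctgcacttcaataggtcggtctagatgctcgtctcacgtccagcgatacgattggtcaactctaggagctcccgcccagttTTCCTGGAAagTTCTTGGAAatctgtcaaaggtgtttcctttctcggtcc
Isg15: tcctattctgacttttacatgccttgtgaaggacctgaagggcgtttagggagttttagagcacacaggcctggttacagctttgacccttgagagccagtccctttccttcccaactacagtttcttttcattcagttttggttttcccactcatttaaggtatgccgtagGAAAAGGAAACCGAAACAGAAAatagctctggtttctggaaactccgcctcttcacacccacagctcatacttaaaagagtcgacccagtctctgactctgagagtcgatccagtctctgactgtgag
Ifit1: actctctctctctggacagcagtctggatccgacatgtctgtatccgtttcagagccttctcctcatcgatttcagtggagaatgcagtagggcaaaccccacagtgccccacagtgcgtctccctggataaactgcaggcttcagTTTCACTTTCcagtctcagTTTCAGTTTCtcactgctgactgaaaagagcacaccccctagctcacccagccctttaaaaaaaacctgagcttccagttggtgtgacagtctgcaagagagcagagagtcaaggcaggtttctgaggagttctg
Of all 32851 windows in the table, 8.30% held TTCNNNGAA and 3.44% held the ISRE pattern. The Il2ra window held no match to TTCNNNGAA, which says only that these letters are not in that window. A window was found for 10066 of the 13073 genes tested (77.0%), so no share was computed for the genes that changed.

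The libraries held between 16569598 and 24518362 counts on genes, and between 14142 and 14671 genes had at least 1 count. Levels are given as CPM, reads scaled to a library size common to all libraries, and triplets of values are in the order of batches 181201, 181212 and 190306. The labelled cell type was checked against its markers: Cd8a had 1318, 1261 and 912 CPM with anti-IL-2 and 966, 1071 and 1167 CPM with IgG, while Cd4 stayed between 0.941 and 2.52 CPM with anti-IL-2 and between 0.321 and 1.71 CPM with IgG, against 1802 to 2013 CPM (anti-IL-2) and 1923 to 1933 CPM (IgG) in CD4 cells of the spleen. The 3 CD4 T cell markers summed to 72.5, 76.8 and 113 CPM with anti-IL-2, against 120, 123 and 79.7 CPM with IgG, with none at 0, and 2 of the 3 were lower with anti-IL-2 in the first 2 batches. Zbtb7b, which encodes the CD4 lineage factor ThPOK, made up most of that sum, with 68.5, 74.4 and 109 CPM with anti-IL-2, against 117, 118 and 76.7 CPM with IgG (log2 fold change -0.73 ± 0.09, adjusted p = 0.000352, edgeR). Cd40lg, which encodes the CD40 ligand, fell too (-0.94 ± 0.24, adjusted p = 0.0244), a call lost without the anti-IL-2 library of 181212 (-0.72, adjusted p = 0.181) or the IgG library of 181212 (-0.76, adjusted p = 0.158) and with limma voom (adjusted p = 0.0989). Both genes were named after their values were seen. The summed level of 13 gut epithelium markers was 21.6 to 25.6 CPM with anti-IL-2 and with IgG in spleen, with 6 or 7 of them at 0 in each library, against 107 to 199 CPM (anti-IL-2) and 70.4 to 77.9 CPM (IgG) in CD8 cells of the gut. Neutrophil markers (10 in the table) summed to 26.0, 1.71 and 60.4 CPM with anti-IL-2, against 2.89, 5.31 and 1.26 CPM with IgG. Macrophage and monocyte markers, none of 16 at 0, summed to 345, 213 and 234 CPM with anti-IL-2, against 213, 192 and 292 CPM with IgG. Within the 3 batches, 16, 7 and 1 of these 16 were higher with anti-IL-2. Their median difference was 0.92, -0.02 and -2.06 in log2 CPM. Dendritic cell markers (13 listed) summed to 488, 372 and 531 CPM with anti-IL-2, against 506, 515 and 493 CPM with IgG. Of the 8 tested, 2 were higher and 0 lower in the first 2 batches, with median differences of 1.05, 0.89 and -1.32. B cell and plasma cell markers (12 in the table) summed to 54.2, 51.7 and 48.5 CPM with anti-IL-2, against 42.1, 32.2 and 75.7 CPM with IgG. With anti-IL-2, 1, 1 and 3 of them were at 0, against 5, 4 and 3 with IgG. Of the 8 tested, 1 was higher and 1 lower in the first 2 batches. The part of these other cells in the results was not tested.

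The labelled difference ran one way in batches 181201 and 181212 and the other way in batch 190306. Cxcr5, the chemokine receptor that guides lymphocytes to B cell follicles, was higher with anti-IL-2 in the first 2 batches and lower in the third, and Il2ra was lower in the first 2 and higher in the third. For this reason, known from earlier results of these data, batch 190306 is set apart. The p-values of the first 2 batches do not allow for that choice. Fold changes are those of the first 2 batches unless all 3 are named, and the values that include 190306 are given for the main genes and, for the rest, in ranges and counts. In the fit of batches 181201 and 181212, 1587 of 13073 genes passed an adjusted p of 0.05 (edgeR's quasi-likelihood test with batch as a term and Benjamini-Hochberg adjustment, here called genes that changed). Of these, 792 genes (6.06% of those tested) were higher and 795 genes (6.08%) were lower with anti-IL-2. The median log2 fold change was 0.60 over the higher genes, -0.43 over the lower genes and -0.0048 over all genes tested. When 1 library was left out, the count was 669 without the anti-IL-2 library of 181201, 697 without that of 181212, 693 without the IgG library of 181201 and 954 without that of 181212. Counts of lists below with 1 library left out are in this same order. List counts are to be set against the shares over all genes tested, 6.06% higher and 6.08% lower. The lists were chosen with earlier results of these data known, so their counts and medians are descriptions.

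Batch 190306 had no part in that fit, but was set apart because its reversal was already known. The counts here describe that reversal and are no independent check of it. In 190306 the sign was opposite for 773 of the 792 higher genes and for 771 of the 795 lower genes, together 97.3%. The median within-batch difference of the higher genes, in log2 CPM of anti-IL-2 minus IgG, was 0.61 in 181201, 0.59 in 181212 and -0.51 in 190306. That of the lower genes was -0.44, -0.40 and 0.36. Among 9619 genes whose mean log2 CPM was 2 or more, 156, 193 and 171 genes differed by at least 1 log2 unit within the 3 batches, so the third batch held a like number of such differences. Of these genes, 111 differed that much in the same direction in the first 2 batches, and in 190306 all 111 had the opposite sign.

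**Figure D1:**
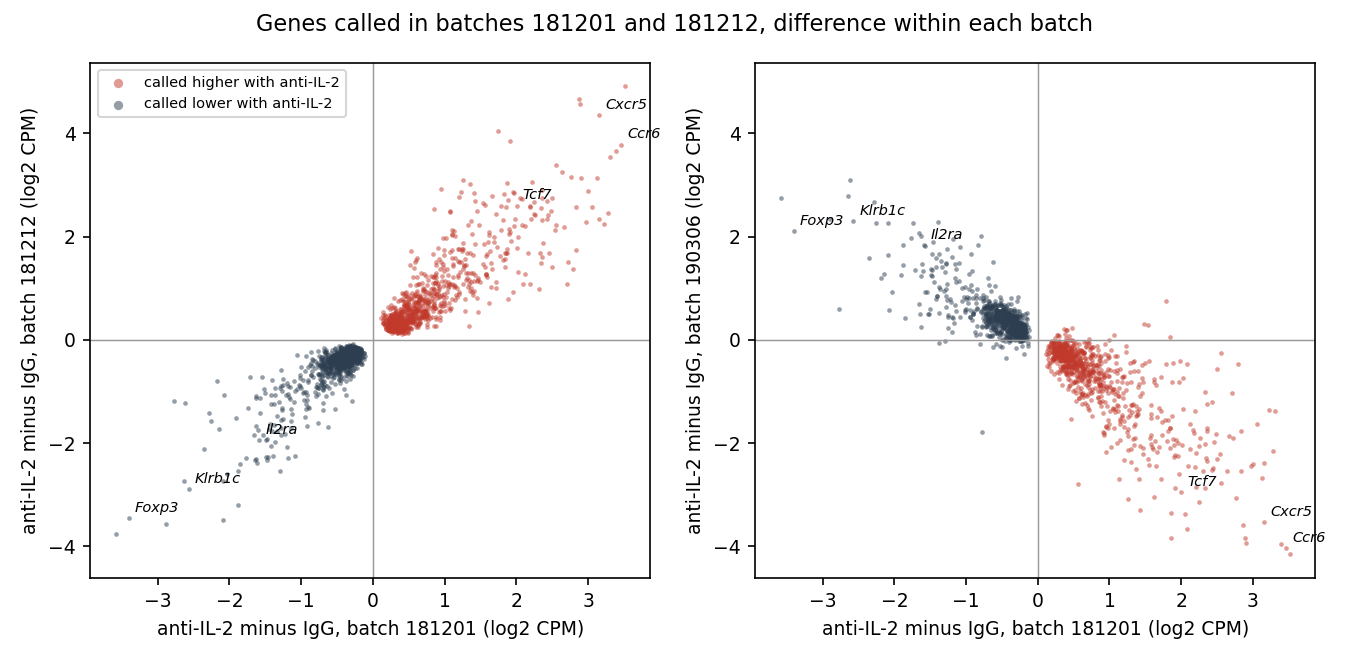
Difference between the anti-IL-2 and the IgG library of 1 batch (log2 CPM) for the 1587 genes that changed in batches 181201 and 181212, with batch 181201 on the x axis of both panels, batch 181212 on the y axis at left and batch 190306 at right. Each point is a gene, red where higher and dark where lower with anti-IL-2. Points fill the same-sign regions at left, which the choice of genes fixes, and the opposite-sign regions at right, where 1544 genes have the opposite sign.

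Over all 3 batches as labelled, no gene of 12841 tested passed (0%; edgeR), and 148 had an unadjusted p under 0.05. DESeq2 and limma voom also called 0 genes. Of 171 genes examined singly, the 120 that changed in the first 2 batches had log2 fold changes between -1.82 and 1.15 over all 3 (adjusted p = 1 for each), against -3.89 to 4.15 in the first 2, and 117 of them had the opposite sign in 190306. The treatment effect of batch 190306 differed from that of the other batches for 2070 of the 12841 genes (16.1%), higher for 1017 and lower for 1053. In batch 190306 each group is 1 library, so the spread in this test comes from the other batches. The batches were split because of the reversal, so the count gives its extent and is no independent test of it. A difference in treatment between batches, a property common to libraries of 190306 and any other property of those 2 libraries cannot be told apart. Whether other libraries of 190306 share the reversal was not tested here.

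In the IL-2 pathway itself, the alpha chain of the receptor fell with anti-IL-2, Jak1 rose slightly, and the other receptor chains and STAT5 genes did not pass the test. Il2ra had 55.9, 53.2 and 158 CPM with anti-IL-2, against 168, 204 and 44.4 CPM with IgG. Both anti-IL-2 libraries of the first 2 batches lay below both IgG libraries, and in 190306 the order was the reverse. The log2 fold change over 181201 and 181212 was -1.78 ± 0.12 (SE, adjusted p = 1.16e-05), and it was -0.90 ± 0.82 (adjusted p = 1) over all 3 batches. Jak1, the kinase bound to the beta chain, had 1487, 1440 and 1374 CPM with anti-IL-2, against 1141, 1203 and 1516 CPM with IgG, a log2 fold change of 0.31 ± 0.05 (adjusted p = 0.00192). In bulk RNA, fewer cells that express a gene and less of its RNA per cell cannot be told apart. Il2ra and Jak1 were the only 2 of 8 tested members of the list of IL-2 receptor and STAT5 signalling genes that changed in that fit; with 1 library left out it was 2, 2, 2 and 3 members. The median log2 fold change of the list was 0.10.

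The signalling beta chain Il2rb, shared with the IL-15 receptor, had 1484, 1484 and 1941 CPM with anti-IL-2, against 1878, 1635 and 1573 CPM with IgG. Its log2 fold change of -0.25 ± 0.08 missed the threshold (adjusted p = 0.0541), but passed without the IgG library of 181212 (-0.36, adjusted p = 0.0255) and with DESeq2 (adjusted p = 0.0166). Il2rg, the common gamma chain, had 817, 704 and 679 CPM with anti-IL-2 and 664, 757 and 769 CPM with IgG, and the groups overlapped (adjusted p = 0.615). Stat5a (0.07 ± 0.06), Stat5b (0.15 ± 0.05) and Jak3 (0.11 ± 0.07), on the log2 scale, did not pass either. Il2 mRNA was at the edge of detection, with 4, 4 and 1 counts in the anti-IL-2 libraries and 0, 1 and 5 counts in the IgG libraries, so no fold is given (adjusted p = 0.082).

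Of the feedback inhibitors of cytokine signalling, Socs2 and Cish fell with anti-IL-2. Socs2, which restrains STAT5 signalling, had 0.619, 0.470 and 4.15 CPM with anti-IL-2, against 8.57, 7.75 and 0.529 CPM with IgG. Its log2 fold change was -3.89 ± 0.24 (adjusted p = 1.04e-06), and all 4 libraries of the first 2 batches stood apart by group. Cish, whose promoter is printed above, had 13.2, 11.7 and 23.2 CPM with anti-IL-2, against 40.3, 39.5 and 9.20 CPM with IgG, a log2 fold change of -1.69 ± 0.12 (adjusted p = 5.58e-06). Over all 3 batches the log2 fold changes were -1.79 ± 1.57 for Socs2 and -0.98 ± 0.63 for Cish (adjusted p = 1 for both). Socs1, induced by many cytokines, had 15.3, 16.8 and 16.5 CPM with anti-IL-2 and 16.2, 14.4 and 20.7 CPM with IgG, a log2 fold change of 0.05 ± 0.11 (adjusted p = 0.834). Socs3, the feedback inhibitor of IL-6-type receptors, had a log2 fold change of 0.40 ± 0.18 (adjusted p = 0.233), which passed with DESeq2 (adjusted p = 0.042). Of 8 SOCS genes tested, 1 was higher and 2 were lower, and with 1 library left out, 2, 2, 3 and 2 had changed. The higher one was Socs5 (0.65 ± 0.16), which lost its call without the anti-IL-2 library of 181201 (0.72, adjusted p = 0.084) or of 181212 (0.60, adjusted p = 0.139) and without the IgG library of 181212 (0.46, adjusted p = 0.185).

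**Figure D2:**
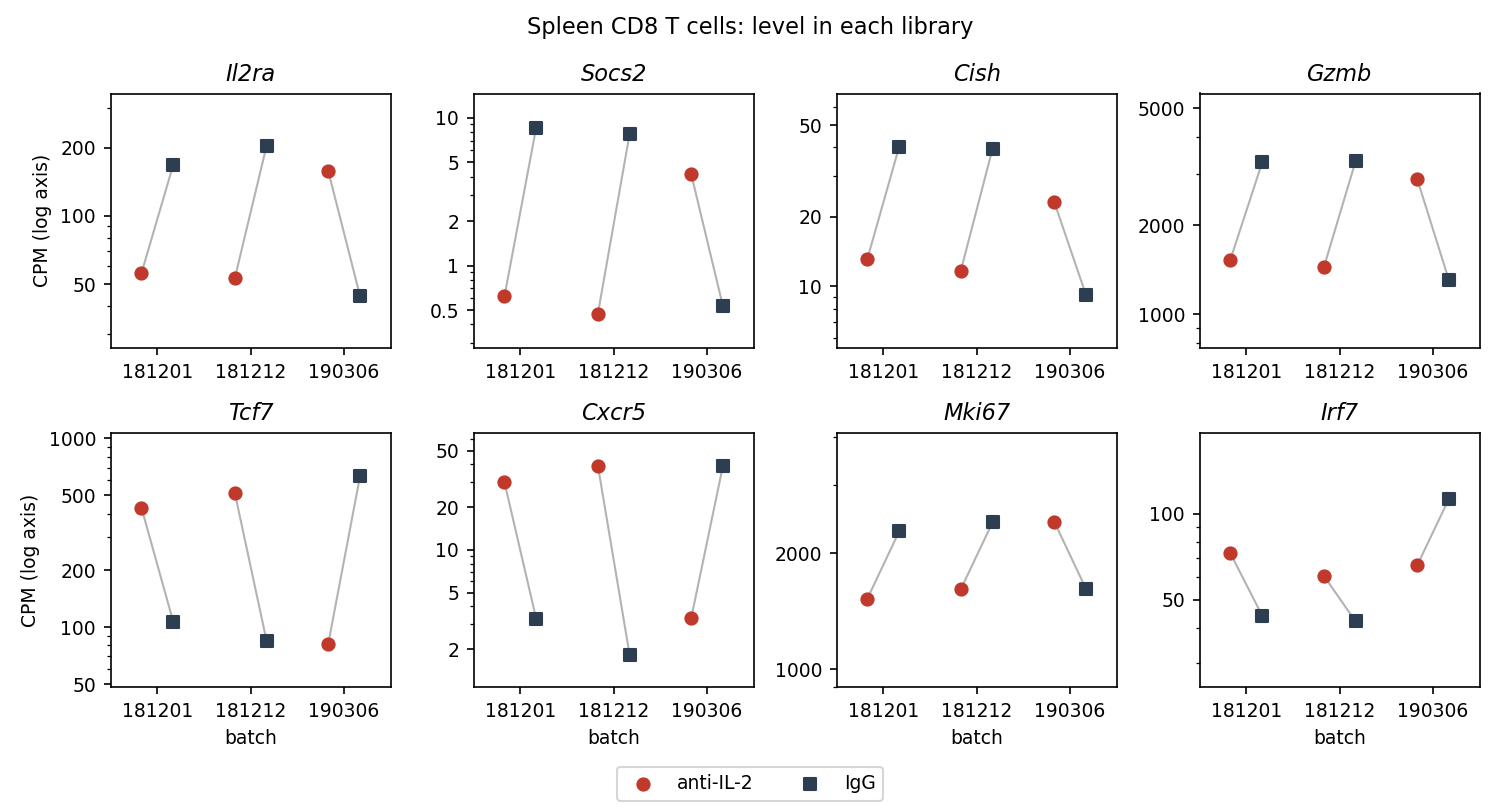
Level (CPM, log axis) of 8 genes in each of the 6 spleen CD8 libraries, anti-IL-2 (circle) left of IgG (square) within each batch, with a line joining the libraries of a batch. Il2ra, Socs2, Cish, Gzmb and Mki67 are lower and Tcf7, Cxcr5 and Irf7 higher with anti-IL-2 in batches 181201 and 181212, and each line slopes the other way in 190306.

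Receptors of other cytokines moved in both directions. Of 24 tested members of the list of other cytokine receptors and STATs, 8 were higher and 5 lower, with a median log2 fold change of 0.15; with 1 library left out, 6, 7, 8 and 6 had changed. The IL-6 receptor rose in both its chains: Il6ra had 12.7, 9.76 and 4.19 CPM with anti-IL-2, against 5.25, 2.60 and 15.6 CPM with IgG (log2 fold change 1.51 ± 0.24, adjusted p = 0.00309). The signal-transducing chain Il6st had 127, 130 and 68.7 CPM with anti-IL-2, against 77.3, 76.3 and 119 CPM with IgG (0.73 ± 0.06, adjusted p = 1.16e-05). Neither gene's groups overlapped within the first 2 batches. The interferon receptor chain Ifnar2 (0.81 ± 0.10) also rose. Il18r1, a chain of the IL-18 receptor, fell (-0.29 ± 0.05). Il7r, the receptor of the survival cytokine IL-7, had 328, 287 and 237 CPM with anti-IL-2 and 285, 426 and 202 CPM with IgG, and its groups overlapped (adjusted p = 0.721).

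Among 30 tested genes listed as induced by IL-2 and STAT5, 10 were lower and 4 higher with anti-IL-2, with a median log2 fold change of -0.18; with 1 library left out, 8, 7, 7 and 9 had changed. This list shares genes with several others. Foxp3, the regulatory T cell transcription factor, gave one of the larger falls, with 2.84, 1.82 and 24.5 CPM with anti-IL-2, against 31.0, 20.9 and 5.62 CPM with IgG (log2 fold change -3.47 ± 0.33, adjusted p = 0.00072). The 2 anti-IL-2 libraries of the first batches held the lowest levels of the 6. The summed CD4 T cell markers given above were lower in the same 2 libraries and also higher with anti-IL-2 in 190306, while Cd4 itself was not above 2.52 CPM in any of the 6; the part of such cells in the fall of Foxp3 was not tested. Ahr, a ligand-sensing transcription factor, had 12.1, 12.1 and 16.0 CPM with anti-IL-2, against 18.7, 20.0 and 17.7 CPM with IgG (-0.69 ± 0.10, adjusted p = 0.000731), and was lower with anti-IL-2 in all 3 batches. The pro-survival gene Bcl2 was 1 of the 4 higher members, with 268, 298 and 116 CPM with anti-IL-2 and 185, 172 and 238 CPM with IgG (0.66 ± 0.10, adjusted p = 0.00159). Pim1, a STAT5-induced kinase, did not pass, with 218, 203 and 269 CPM with anti-IL-2 and 302, 211 and 226 CPM with IgG (adjusted p = 0.466).

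Genes of the killing machinery that changed were lower with anti-IL-2 in all but 1 case. Of 16 tested granule genes, 7 were lower and 1 was higher, with a median log2 fold change of -0.31; with 1 library left out, 5, 6, 5 and 5 had changed. Gzmb, the granzyme that starts caspase-dependent death in target cells, had 1532, 1440 and 2877 CPM with anti-IL-2, against 3273, 3302 and 1304 CPM with IgG (-1.16 ± 0.10, adjusted p = 4.29e-05). Gzma had 396, 353 and 1443 CPM with anti-IL-2, against 1754, 1170 and 597 CPM with IgG (-1.95 ± 0.18, adjusted p = 0.000805). For both granzymes the 2 anti-IL-2 libraries of the first batches lay well below the 2 IgG libraries. Serpinb9b, of the serpin family that inhibits granzymes, fell as well (-1.34 ± 0.20, adjusted p = 0.00177). Lamp1, a membrane protein of lysosomes and cytotoxic granules, was the 1 higher member (0.36 ± 0.06, adjusted p = 0.000915). The pore-forming Prf1 fell by less (-0.32 ± 0.07, adjusted p = 0.00689) and lost its call without the anti-IL-2 library of 181212 (-0.26, adjusted p = 0.111) or the IgG library of 181201 (-0.32, adjusted p = 0.0514). Gzmk, with 184, 143 and 155 CPM with anti-IL-2 and 152, 113 and 197 CPM with IgG, did not pass (adjusted p = 0.24), but did in the fits on spleen CD8 libraries alone (adjusted p = 0.004) and on spleen libraries alone (adjusted p = 0.0362). The death ligand Fasl did not pass (-0.16 ± 0.07, adjusted p = 0.198).

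Among killer receptors of the natural killer cell type, those that changed were lower in all but 1 case. Of 14 tested, 5 were lower and 1 was higher, with a median log2 fold change of -0.37; with 1 library left out, 4, 4, 4 and 5 had changed. Klrb1c, which encodes the NK1.1 receptor, had 16.0, 10.9 and 27.5 CPM with anti-IL-2, against 95.7, 82.2 and 5.49 CPM with IgG. Its log2 fold change was -2.75 ± 0.13 (adjusted p = 2.7e-07), the smallest adjusted p of all genes in that fit. The activating receptor Klrk1, or NKG2D, had 213, 213 and 188 CPM with anti-IL-2, against 347, 352 and 177 CPM with IgG (-0.72 ± 0.10, adjusted p = 0.000538). Klrd1, the CD94 partner chain of NKG2 receptors, and Cd244 fell too (-0.59 ± 0.08 and -1.12 ± 0.16). The 7 markers listed for NK cells, Klrb1c among them, summed to 183, 183 and 117 CPM with anti-IL-2 and 190, 141 and 182 CPM with IgG, with 1 or 2 at 0 in each library, and their part was not tested. Klrg1, a marker of terminal effector cells, did not pass and its groups overlapped, with 26.2, 22.3 and 19.1 CPM with anti-IL-2 and 34.7, 18.7 and 19.4 CPM with IgG (adjusted p = 0.847).

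Of 14 effector transcription factors and surface markers, 3 were lower and none was higher with anti-IL-2, and the median log2 fold change was -0.22. With 1 library left out, 0, 2, 1 and 2 had changed, so this count rested on single libraries. Tbx21, which encodes T-bet, the main effector regulator, had 229, 284 and 352 CPM with anti-IL-2, against 364, 334 and 333 CPM with IgG (-0.46 ± 0.10, adjusted p = 0.0124). Its call was lost without the anti-IL-2 library of 181201 (-0.36, adjusted p = 0.143) or the IgG library of 181201 (-0.31, adjusted p = 0.121). Prdm1, which encodes Blimp-1, had 96.1, 114 and 120 CPM with anti-IL-2 and 114, 127 and 95.3 CPM with IgG, and missed the threshold (-0.21 ± 0.07, adjusted p = 0.0586). Zeb2, a partner of T-bet in terminal effector cells, did not pass (-0.43 ± 0.16, adjusted p = 0.116).

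Genes of naive and stem-like memory T cells that changed were higher with anti-IL-2 in all but 1 case, and several were among the largest changes in the data. Of 22 tested, 12 were higher and 1 was lower, with a median log2 fold change of 0.24; with 1 library left out, 9, 10, 10 and 11 had changed. Tcf7, which encodes TCF1, had 429, 513 and 81.6 CPM with anti-IL-2, against 107, 84.5 and 630 CPM with IgG (2.30 ± 0.12, adjusted p = 6.86e-06). Its anti-IL-2 library of 190306 was the lowest of the 6, and its IgG library of 190306 the highest. Ccr7, the receptor for entry into lymph nodes, had 21.8, 14.8 and 2.56 CPM with anti-IL-2, against 7.02, 3.38 and 21.97 CPM with IgG (1.81 ± 0.20, adjusted p = 0.000132).

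Transcriptional regulators of this programme rose with them. Id3, an inhibitor of E proteins found in memory precursors, had 12.1, 12.8 and 2.89 CPM with anti-IL-2, against 2.46, 1.94 and 26.3 CPM with IgG (2.48 ± 0.16, adjusted p = 1.3e-06). Bach2, a repressor of effector genes, had 24.5, 25.3 and 6.05 CPM with anti-IL-2, against 8.14, 8.14 and 21.97 CPM with IgG (1.60 ± 0.12, adjusted p = 5.41e-06). Both groups stood apart in the first 2 batches and changed places in 190306. Dapl1, a transcript of naive and memory CD8 cells, gave 3.07 ± 0.19, and Slamf6, a surface marker of stem-like cells, 1.27 ± 0.10. Eomes, a T-box factor of memory CD8 cells, had 157, 162 and 70.1 CPM with anti-IL-2, against 73.2, 39.4 and 169 CPM with IgG (1.5 ± 0.34, adjusted p = 0.0451). Its call was lost without the anti-IL-2 library of 181201 (1.56, adjusted p = 0.191) or of 181212 (1.44, adjusted p = 0.184), without a filter on low counts (1.51, adjusted p = 0.0714) and in the fit on spleen CD8 libraries alone (1.56, adjusted p = 0.375).

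Members of the same list that control quiescence and egress did not move with them. Lef1, the relative of TCF1, had 151, 171 and 208 CPM with anti-IL-2 and 148, 149 and 224 CPM with IgG (adjusted p = 0.465). Foxo1 (0.12 ± 0.07), Klf2 (-0.18 ± 0.13) and its target S1pr1 (-0.14 ± 0.10), the receptor for exit from lymphoid tissue, did not pass.

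Follicular helper genes, best known from CD4 T cells, had the highest median of the 24 lists, 1.06 log2 units. The lists were chosen with earlier results of these data known, so this rank is a description. Of 16 tested, 11 were higher and 2 were lower; with 1 library left out, 12, 10, 11 and 10 had changed. Cxcr5 had 30.0, 39.3 and 3.31 CPM with anti-IL-2, against 3.27, 1.83 and 39.3 CPM with IgG (3.74 ± 0.30, adjusted p = 0.000216), and over all 3 batches it gave 1.14 ± 1.49 (adjusted p = 1). Bcl6, the repressor that defines follicular helper cells and opposes Blimp-1, had 15.3, 18.4 and 6.99 CPM with anti-IL-2, against 6.70, 7.86 and 19.8 CPM with IgG (1.20 ± 0.14, adjusted p = 0.000107). The libraries of the first 2 batches separated by group for both genes. The surface glycoprotein Cd200 (1.32 ± 0.11), the inhibitory receptor Btla (0.92 ± 0.12) and Tox2 (1.23 ± 0.20), a follicular and exhaustion-associated factor, rose as well. Maf, another regulator of follicular cells, had 43.0, 45.7 and 48.5 CPM with anti-IL-2 and 56.7, 57.9 and 42.9 CPM with IgG (-0.38 ± 0.17, adjusted p = 0.214). It passed in the fits on spleen CD8 libraries alone (adjusted p = 0.0109) and on spleen libraries alone (adjusted p = 0.0444).

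**Figure D3:**
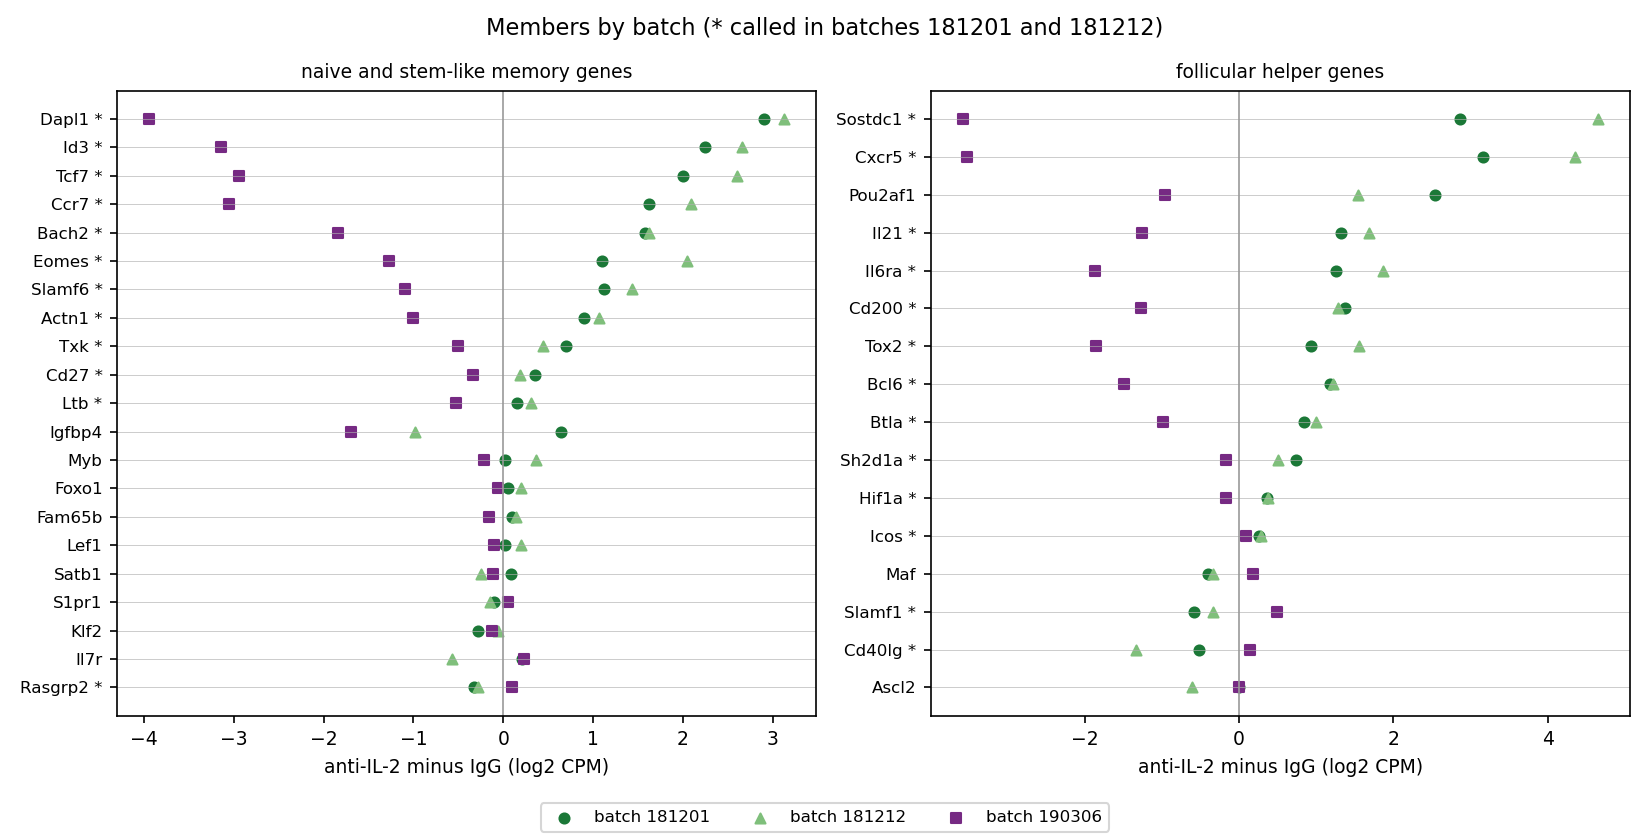
Difference between anti-IL-2 and IgG (log2 CPM) within each batch for 21 of the 22 tested naive and stem-like memory genes (left) and the 16 tested follicular helper genes (right), ordered by the fit of batches 181201 and 181212, with an asterisk on genes that changed in it. The upper members, such as Dapl1 (3.07) and Cxcr5 (3.74), lie right of 0 in the first 2 batches and left of 0 in 190306.

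Inhibitory receptors were divided. Of 15 tested genes of the list of inhibitory receptors and TOX, 5 were higher and 3 lower, with a median of 0.15; with 1 library left out, 7, 6, 6 and 7 had changed. Tox, the factor that sustains exhausted and stem-like CD8 cells, had 370, 443 and 166 CPM with anti-IL-2, against 193, 172 and 383 CPM with IgG (1.13 ± 0.17, adjusted p = 0.00558). Nt5e, which encodes the adenosine-producing enzyme CD73, rose to the same degree (1.07 ± 0.08, adjusted p = 5.94e-06). Pdcd1, which encodes PD-1, had 590, 560 and 474 CPM with anti-IL-2, against 448, 445 and 519 CPM with IgG (0.36 ± 0.06, adjusted p = 0.00178). Lag3 rose by a like amount (0.40 ± 0.07, adjusted p = 0.00288). Tigit had 253, 259 and 234 CPM with anti-IL-2 and 252, 259 and 207 CPM with IgG, nearly equal within each of the first 2 batches (adjusted p = 0.968). Ctla4 overlapped between the groups (adjusted p = 0.836).

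Foxp3 apart, regulatory T cell genes changed little: of 13 tested, 0 were higher and 2 lower, the other being Tgfb1 (-0.33 ± 0.08); with 1 library left out, 1, 1, 2 and 2 had changed. The call of Tgfb1 was lost without the anti-IL-2 library of 181201 (-0.32, adjusted p = 0.131) or of 181212 (-0.33, adjusted p = 0.108) and without the IgG library of 181201 (-0.28, adjusted p = 0.165). Il10 had 8.56, 7.11 and 5.36 CPM with anti-IL-2 and 6.97, 3.88 and 3.62 CPM with IgG and did not pass (adjusted p = 0.317). Ikzf2, which encodes Helios, did not pass (0.66 ± 0.28, adjusted p = 0.231), but did without the IgG library of 181201 (1.11, adjusted p = 0.0386). The median log2 fold change of the list was 0.15. Over all genes tested, 6.06% were higher and 6.08% lower.

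Genes of the type 2 and type 17 helper programmes moved in opposite directions in part. Of 9 tested type 2 genes, 3 were lower and none was higher. Ccr8, a chemokine receptor of type 2 and regulatory T cells, had 2.01, 1.47 and 2.56 CPM with anti-IL-2, against 3.86, 3.76 and 1.79 CPM with IgG (-1.12 ± 0.20, adjusted p = 0.00229). The regulator Gata3 fell (-0.50 ± 0.09, adjusted p = 0.00277), a call lost without the anti-IL-2 library of 181201 (-0.37, adjusted p = 0.0575). Of 9 tested type 17 genes, 3 were higher and 1, Ahr, was lower. Ccr6, the chemokine receptor of type 17 cells, had 21.0, 27.9 and 1.16 CPM with anti-IL-2, against 1.82, 1.94 and 20.8 CPM with IgG (3.69 ± 0.22, adjusted p = 9.87e-07). Its anti-IL-2 libraries lay above its IgG libraries in the first 2 batches and below in 190306. With 1 library left out, 1, 2, 3 and 2 of the type 2 genes and 3, 3, 2 and 4 of the type 17 genes had changed.

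Receptors for adhesion and traffic split evenly, with 4 of 22 tested higher and 4 lower and a median of 0.03; with 1 library left out, 6, 6, 7 and 5 had changed. Itga1, the integrin chain CD49a that binds collagen in tissues, had 59.7, 48.9 and 117 CPM with anti-IL-2, against 145, 176 and 42.3 CPM with IgG (-1.58 ± 0.16, adjusted p = 0.000673). Itga2, the related chain CD49b, had 14.1, 11.9 and 35.7 CPM with anti-IL-2, against 31.0, 32.6 and 16.4 CPM with IgG (-1.30 ± 0.14, adjusted p = 6.84e-05). Both integrin chains were thus lower with anti-IL-2 in the first 2 batches and higher in 190306. Cxcr3, the receptor for interferon-induced chemokines, did not pass (0.12 ± 0.09, adjusted p = 0.442), nor did Cxcr6 (-0.16 ± 0.08, adjusted p = 0.266).

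The effector cytokines Ifng, Tnf and Csf2 did not pass, while 4 members of their list rose. Over all genes tested, 6.06% were higher and 6.08% lower. Of 19 tested inflammatory cytokine and chemokine genes, 4 were higher and 0 lower, with a median of 0.26; with 1 library left out, 3, 4, 3 and 4 had changed. Tnfsf8, which encodes the CD30 ligand, had 56.3, 60.6 and 9.55 CPM with anti-IL-2, against 18.5, 19.2 and 40.8 CPM with IgG (1.62 ± 0.13, adjusted p = 2.73e-05). Tnfsf11, which encodes RANKL, had 3.30, 4.41 and 0.512 CPM with anti-IL-2, against 1.45, 0.941 and 3.91 CPM with IgG (1.66 ± 0.26, adjusted p = 0.00111). In both, the groups of the first 2 batches were apart. Ifng, the signature cytokine of effector CD8 cells, overlapped, with 132, 141 and 146 CPM with anti-IL-2 and 191, 97.5 and 66.6 CPM with IgG (adjusted p = 0.97). Tnf (0.26 ± 0.25) and Csf2 (-0.33 ± 0.26) did not pass.

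Costimulators of the TNF receptor family rose where they changed. Of 12 tested, 5 were higher and 0 lower, with a median of 0.22; with 1 library left out, 2, 4, 2 and 3 had changed. Tnfrsf25, which encodes death receptor 3, had 33.5, 29.8 and 9.36 CPM with anti-IL-2, against 17.3, 20.1 and 30.3 CPM with IgG (0.75 ± 0.10, adjusted p = 0.000357). Tnfrsf26 gave 0.85 ± 0.11 (adjusted p = 0.000214). Tnfrsf9, which encodes 4-1BB, had 139, 141 and 122 CPM with anti-IL-2 and 119, 137 and 106 CPM with IgG and did not pass (adjusted p = 0.419), nor did Tnfrsf4, which encodes OX40 (0.15 ± 0.09, adjusted p = 0.326).

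The type I interferon response was higher with anti-IL-2 in most of its genes, while Ifitm2 and Ifitm3 went the other way. Of 39 tested members, 25 were higher and 3 were lower, with a median log2 fold change of 0.34; with 1 library left out, 14, 15, 15 and 17 had changed. Irf7, the factor that amplifies interferon production, had 72.7, 60.8 and 66.0 CPM with anti-IL-2, against 44.1, 42.1 and 113 CPM with IgG (0.62 ± 0.08, adjusted p = 0.000165). Oas1a, a sensor of double-stranded RNA, had 14.1, 15.6 and 8.94 CPM with anti-IL-2, against 5.20, 6.48 and 19.2 CPM with IgG (1.34 ± 0.13, adjusted p = 3.13e-05). For these 2 genes the IgG library of 190306 was the highest of the 6. The antiviral GTPase Mx1 (0.74 ± 0.09) and the RNA-binding Ifit3 (1.37 ± 0.19) rose too.

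Of the genes whose promoters are printed above, Isg15, the ubiquitin-like modifier, had 9.85, 11.3 and 6.38 CPM with anti-IL-2, against 6.00, 5.65 and 16.1 CPM with IgG (0.85 ± 0.23, adjusted p = 0.0322). Ifit1, which binds foreign RNA caps, had 13.7, 18.3 and 4.84 CPM with anti-IL-2, against 6.91, 4.60 and 16.0 CPM with IgG (1.45 ± 0.37, adjusted p = 0.0458). Both calls were lost when any 1 of the 4 libraries was left out, that of Isg15 also with limma voom (adjusted p = 0.0796) and that of Ifit1 without a filter (adjusted p = 0.106) and on spleen libraries alone (adjusted p = 0.0885). In the order given above, the log2 fold change was then 0.98, 0.72, 0.89 and 0.81 for Isg15 (adjusted p = 0.0848, 0.198, 0.171 and 0.175) and 1.66, 1.24, 1.86 and 1.12 for Ifit1 (adjusted p = 0.105, 0.2, 0.0943 and 0.228).

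The IFITM genes encode membrane proteins that block virus entry and are also induced by interferon. Ifitm3 had 6.96, 3.65 and 21.2 CPM with anti-IL-2, against 29.8, 41.9 and 4.31 CPM with IgG (-2.75 ± 0.41, adjusted p = 0.0106). Ifitm2 had 15.1, 7.64 and 46.6 CPM with anti-IL-2, against 56.1, 71.3 and 12.9 CPM with IgG (-2.53 ± 0.39, adjusted p = 0.014). Both lay lower in the anti-IL-2 libraries of the first 2 batches, where most other interferon genes lay higher, and both had the reverse order in 190306. Ifitm3 lost its call without the anti-IL-2 library of 181212 (-2.37, adjusted p = 0.0649), and Ifitm2 without that of 181201 (-2.95, adjusted p = 0.0625) or of 181212 (-2.23, adjusted p = 0.0931). Both calls were lost on spleen CD8 libraries alone (adjusted p = 0.232 for Ifitm3 and 0.34 for Ifitm2) and on spleen libraries alone (0.05001 and 0.052). Ifitm1 had 63.3, 32.6 and 97.6 CPM with anti-IL-2 and 114, 215 and 31.1 CPM with IgG, did not pass (-1.84 ± 0.57, adjusted p = 0.121), and did with DESeq2 (adjusted p = 0.00899) and limma voom (adjusted p = 0.0175). The third lower member, Ly6c2, a surface marker of effector and memory CD8 cells, gave -0.63 ± 0.13 (adjusted p = 0.0142). It lost its call without the anti-IL-2 library of 181212 (-0.44, adjusted p = 0.0779) and without the IgG library of 181201 (-0.63, adjusted p = 0.109) or of 181212 (-0.63, adjusted p = 0.0814). It was named, like Isg15, Ifit1 and Ifitm1, after its values were seen.

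**Figure D4:**
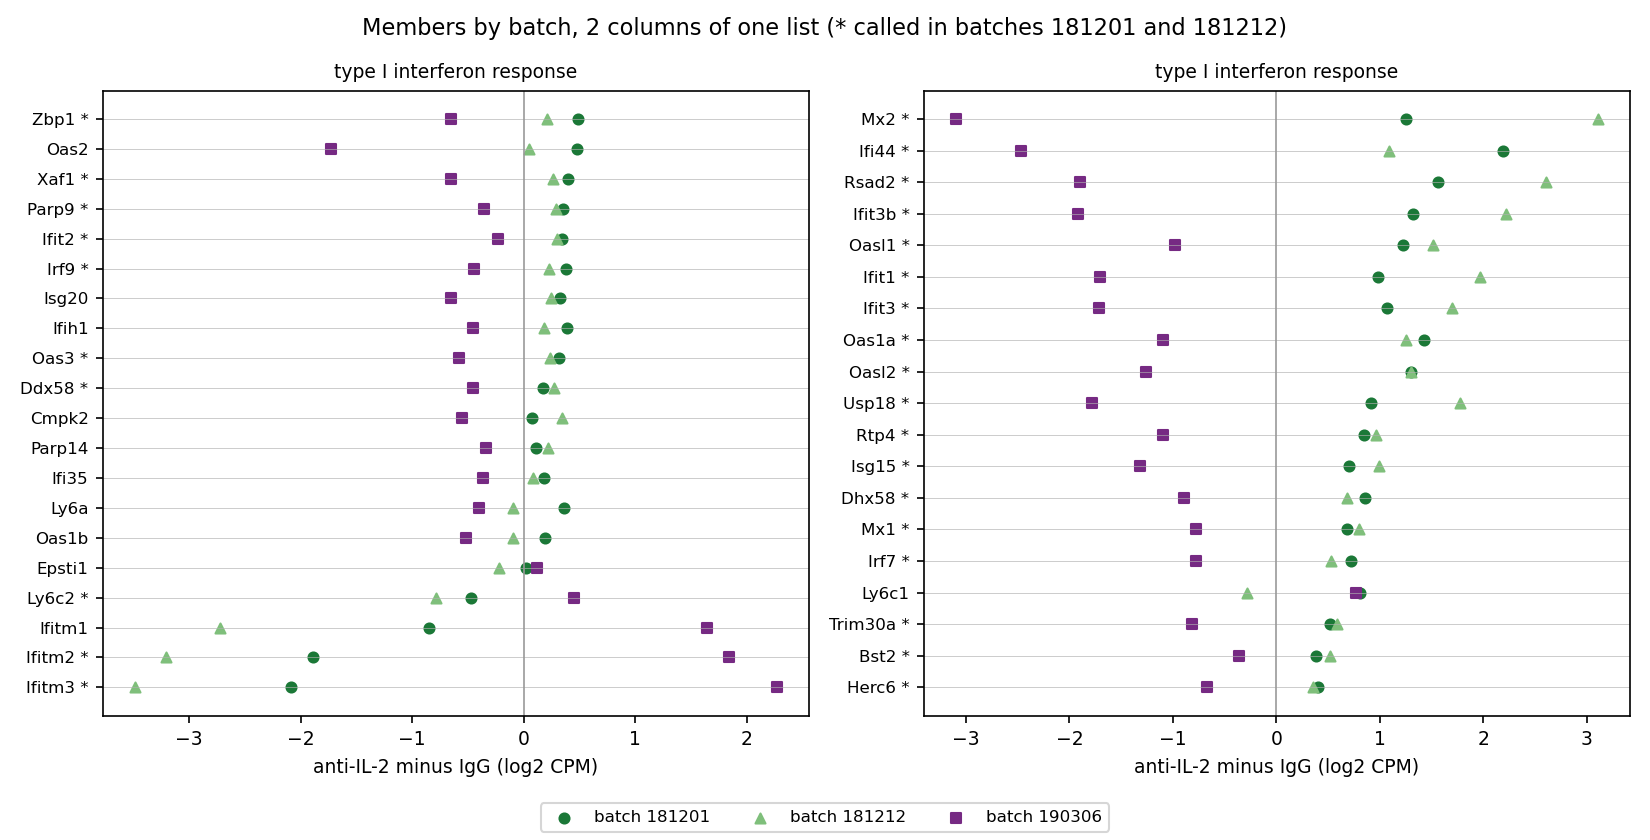
Difference between anti-IL-2 and IgG (log2 CPM) within each batch for the 39 tested type I interferon response genes, ordered over both columns by the fit of batches 181201 and 181212, with an asterisk on genes that changed in it. Most members lie right of 0 in the first 2 batches, while Ifitm2 (-2.53) and Ifitm3 (-2.75) at the foot lie left of 0, and in 190306 33 of the 39 lie left of 0.

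Cell-cycle genes were lower with anti-IL-2, by small and even amounts. All 24 tested mitosis genes were lower, with a median log2 fold change of -0.44, and 15 of 28 DNA replication genes were lower and 0 higher, with a median of -0.35. With 1 library left out, 12, 14, 12 and 21 mitosis genes and 10, 5, 4 and 11 replication genes had changed. Without batch as a term, 9 mitosis genes had changed. Mki67, the proliferation marker Ki-67, had 1526, 1614 and 2417 CPM with anti-IL-2, against 2280, 2407 and 1617 CPM with IgG (-0.59 ± 0.07, adjusted p = 0.000175). Foxm1, a transcription factor of the G2/M phase, had 97.0, 114 and 212 CPM with anti-IL-2, against 157, 167 and 151 CPM with IgG (-0.63 ± 0.08, adjusted p = 0.000239). Their anti-IL-2 libraries were below the IgG libraries in the first 2 batches and above in 190306.

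Cyclin A2 (Ccna2) fell by 0.54 ± 0.07 on the log2 scale. The nucleotide-producing enzyme subunit Rrm2 fell by 0.53 ± 0.07, and Uhrf1, which maintains DNA methylation in S phase, by 0.51 ± 0.08. The helicase subunit Mcm6 was level, with 515, 503 and 528 CPM with anti-IL-2 and 496, 504 and 517 CPM with IgG (adjusted p = 0.918). In 190306 the within-batch difference was above 0 in all 24 mitosis genes and in all 28 replication genes.

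**Figure D5:**
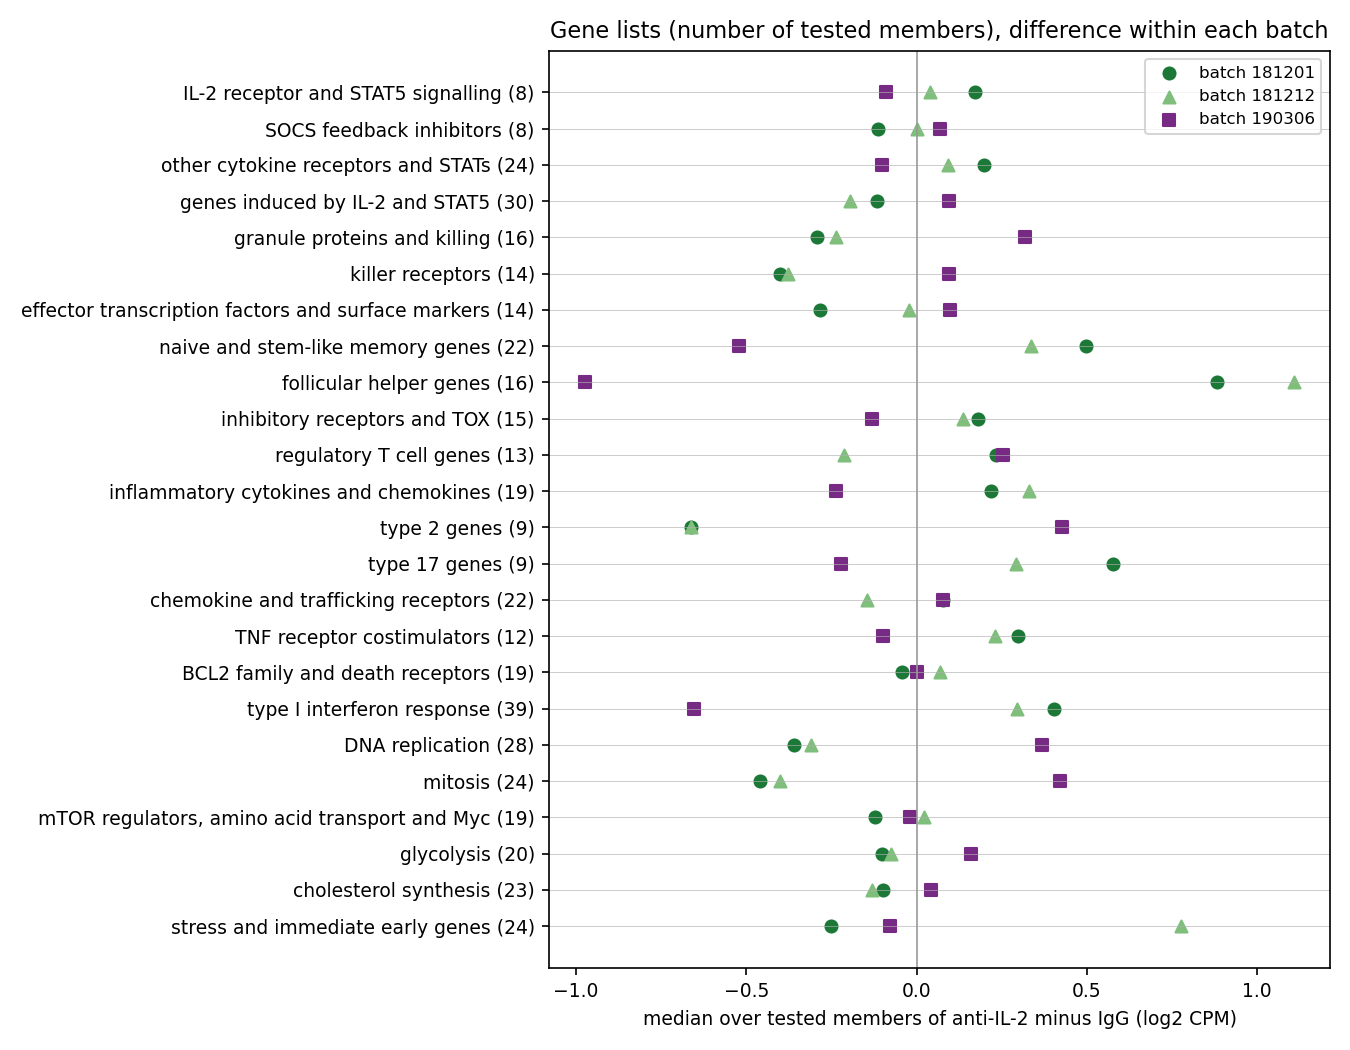
Median difference between anti-IL-2 and IgG (log2 CPM) over the tested members of 24 gene lists, 1 symbol per batch, with the number of members in parentheses. Follicular helper genes reach 0.88 and 1.11 in the first 2 batches and -0.97 in 190306, and mitosis genes -0.46, -0.40 and 0.42.

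Metabolic lists had small medians. Their counts stand beside shares of 6.06% higher and 6.08% lower over all genes tested. Of 20 glycolysis genes, 4 were lower and 0 higher, with a median of -0.11, of 23 cholesterol synthesis genes 2 were lower and 0 higher, with a median of -0.12, and of 19 genes of mTOR regulation, amino acid transport and Myc 2 were higher and 3 lower, with a median of -0.08. With 1 library left out, 2, 1, 1 and 2 glycolysis genes, 1, 0, 2 and 0 cholesterol genes and 1, 1, 1 and 3 genes of the third list had changed. Hk2, the hexokinase that starts glycolysis in activated T cells, had 47.9, 51.7 and 56.8 CPM with anti-IL-2, against 66.2, 67.6 and 38.7 CPM with IgG (-0.44 ± 0.07, adjusted p = 0.00156). Sesn3, a sestrin that restrains mTOR, had 62.9, 69.7 and 36.5 CPM with anti-IL-2, against 44.5, 38.0 and 64.9 CPM with IgG (0.67 ± 0.10, adjusted p = 0.000754). Hk2 was thus lower and Sesn3 higher with anti-IL-2 in both of the first 2 batches. The glucose transporter Slc2a1 (-0.11 ± 0.07) and Mtor itself (-0.12 ± 0.07) did not pass.

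Of 19 tested genes of the BCL2 family and death receptors, 2 were higher and 3 lower, with a median of 0.07; with 1 library left out, 5, 2, 2 and 5 had changed. Besides Bcl2, the death receptor Fas rose, with 32.4, 31.5 and 13.5 CPM with anti-IL-2, against 15.7, 14.5 and 26.2 CPM with IgG (1.07 ± 0.11, adjusted p = 3.08e-05). The groups of both genes were apart in the first 2 batches. The pro-apoptotic Bcl2l11, or Bim, had 305, 337 and 249 CPM with anti-IL-2 and 318, 272 and 281 CPM with IgG, and did not pass (adjusted p = 0.497), nor did the pro-survival Mcl1 (0.07 ± 0.07, adjusted p = 0.645).

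Stress and immediate early genes did not move together in the first 2 batches. Their median difference over 24 genes was -0.25 in 181201, 0.78 in 181212 and -0.08 in 190306, and 2 were higher and 0 lower; with 1 library left out, 0, 1, 0 and 1 had changed. Fos, part of the AP-1 factor, had 59.8, 105 and 35.7 CPM with anti-IL-2 and 34.9, 19.9 and 49.9 CPM with IgG; it did not pass (adjusted p = 0.188), but did with DESeq2 (adjusted p = 0.049) and limma voom (adjusted p = 0.044). Nr4a1, an early reporter of T cell receptor signalling, had 34.7, 79.0 and 82.5 CPM with anti-IL-2 and 66.8, 20.5 and 45.1 CPM with IgG, with groups that overlapped (adjusted p = 0.881). What moved them was not tested.

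Among the genes ranked, the largest changes outside these lists were of varied function. Kit, the receptor of stem cell factor, had 11.9, 13.99 and 1.30 CPM with anti-IL-2, against 2.25, 1.77 and 6.80 CPM with IgG (2.67 ± 0.27, adjusted p = 0.000137). Igf1r, the receptor of insulin-like growth factor 1, had 7.84, 13.2 and 1.86 CPM with anti-IL-2, against 2.14, 1.77 and 5.66 CPM with IgG (2.39 ± 0.28, adjusted p = 0.000427). Snn (2.73), Ociad2 (2.49), Nsg2 (2.39), the potassium channel gene Kcnc1 (2.39) and the calcium channel gene Cacna1d (2.38), all log2 fold changes, were among the 12 largest rises, as were Cxcr5, Ccr6, Dapl1 and Id3 above. Nsg2 did not pass in the fit on spleen CD8 libraries alone (2.42, adjusted p = 0.261).

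On the lower side, St6gal1, which adds sialic acid to N-glycans, had 22.5, 22.2 and 178 CPM with anti-IL-2, against 141, 148 and 25.8 CPM with IgG (-2.70 ± 0.24, adjusted p = 0.000805). Its anti-IL-2 libraries of the first 2 batches and its IgG library of 190306 were at nearly the same level. The metallothionein Mt2 (-1.93 ± 0.33), the ephrin receptor Epha3 (-1.85 ± 0.20) and the transcriptional cofactor Eya2 (-1.78 ± 0.19) fell as well. B4galnt4, a glycosyltransferase gene, fell (-1.94 ± 0.32, adjusted p = 0.0129), but not without the anti-IL-2 library of 181201 (-1.99, adjusted p = 0.0989) or of 181212 (-1.89, adjusted p = 0.0973). Anxa1, an annexin with anti-inflammatory activity, had 22.3, 16.2 and 41.5 CPM with anti-IL-2, against 59.6, 68.3 and 13.8 CPM with IgG (-1.73 ± 0.32, adjusted p = 0.0211). With 1 library left out, in the order given above, it missed the threshold each time (-2.03, -1.48, -1.85 and -1.62; adjusted p = 0.0709, 0.132, 0.107 and 0.116). Cd68, a marker of macrophages that is also transcribed in other leukocytes, rose (0.90 ± 0.10, adjusted p = 0.00011) with 56.0, 47.5 and 48.3 CPM with anti-IL-2, against 28.4, 26.9 and 62.1 CPM with IgG, and was the 1 of 16 macrophage markers that changed.

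The few genes that kept their sign in 190306 were 19 of the higher and 24 of the lower genes. Only Cdk5rap1, an enzyme that modifies mitochondrial transfer RNA, did so with a difference of at least 0.5 log2 units in 190306 among genes whose mean log2 CPM was 2 or more. It had 11.7, 11.1 and 10.1 CPM with anti-IL-2, against 20.1, 15.4 and 35.0 CPM with IgG, lower with anti-IL-2 in each batch. Its log2 fold change was -0.65 ± 0.14 (adjusted p = 0.01) in the first 2 batches. The call was lost without the anti-IL-2 library of 181201 (-0.60, adjusted p = 0.117) or of 181212 (-0.69, adjusted p = 0.059) and without the IgG library of 181201 (-0.50, adjusted p = 0.146).

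The treatment effect in CD8 cells was set against that in CD4 cells of the spleen. This was a test of the difference between the 2 effects in batches 181201 and 181212. The fit treated CD4 and CD8 libraries of the same group and batch as independent, whether or not they shared recipients. The difference between the effects is given as CD8 minus CD4. A difference was called for 120 of 13073 genes (0.918%), with a more positive effect in CD8 cells for 98 genes and a more negative one for 22. With 1 library left out, the count was 29 or 45 without the anti-IL-2 library of CD8 cells of 181201 or 181212 and 48 or 54 without the IgG library. It was 56 or 71 without the anti-IL-2 library of CD4 cells of 181201 or 181212 and 74 or 64 without the IgG library. Without batch as a term it was 52. Foxp3 had the most negative difference, -3.38 ± 0.41 (log2, adjusted p = 0.0162). In CD4 cells Foxp3 had 31.9 and 35.1 CPM with anti-IL-2, against 32.9 and 38.4 CPM with IgG, in the order 181201 and 181212, so the groups were close, while in CD8 cells the anti-IL-2 libraries were lower. St6gal1 (-2.77 ± 0.32) had 170 and 138 CPM with anti-IL-2 and 150 and 144 CPM with IgG in CD4 cells, again with close groups. Klrb1c (-2.33 ± 0.18) had 19.3 and 13.8 CPM with anti-IL-2 and 25.1 and 19.6 CPM with IgG in CD4 cells.

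For Esm1, an endothelial proteoglycan gene, the effects had opposite directions: it fell in CD8 cells (-0.77 ± 0.11), with 24.5 and 19.2 CPM with anti-IL-2 against 40.2 and 33.7 CPM with IgG. In CD4 cells it had 20.6 and 18.4 CPM with anti-IL-2, against 5.55 and 6.40 CPM with IgG, and the difference of effects was -2.48 ± 0.17 (adjusted p = 2.02e-05). Esm1 and Tiam1 were called under every alternative run. Gzmk (-1.66 ± 0.22) and Tiam1 (-1.47 ± 0.17), a guanine nucleotide exchange factor, were higher with anti-IL-2 in CD4 libraries and did not pass in CD8 cells. Tiam1 had 80.5 and 98.9 CPM with anti-IL-2 and 36.9 and 32.5 CPM with IgG in CD4 cells, against 16.2 and 15.8 CPM with anti-IL-2 and 16.8 and 17.1 CPM with IgG in CD8 cells.

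On the positive side, Ccr6 (2.10 ± 0.34, adjusted p = 0.0128) had 6.87 and 5.65 CPM with anti-IL-2, against 1.93 and 2.25 CPM with IgG in CD4 cells, so its levels were higher with anti-IL-2 in both cell types. The gut-homing receptor Ccr9 (1.96 ± 0.31) had 11.3 and 12.6 CPM with anti-IL-2, against 19.6 and 14.8 CPM with IgG in CD4 cells, and 8.05 and 6.64 CPM with anti-IL-2, against 3.48 and 1.88 CPM with IgG in CD8 cells. Gpr25 (1.74 ± 0.26), an orphan receptor of memory T cells, had 21.0 and 18.3 CPM with anti-IL-2 and 18.5 and 21.2 CPM with IgG in CD4 cells, and 14.2 and 9.41 CPM with anti-IL-2, against 4.07 and 2.99 CPM with IgG in CD8 cells. Map6, a microtubule-associated protein (1.68 ± 0.20), and Erc2 (1.90 ± 0.38) were lower with anti-IL-2 in CD4 libraries and did not pass in CD8 cells. Flt1, a receptor of vascular endothelial growth factor (2.28 ± 0.48), had 0.458 and 0.798 CPM with anti-IL-2 and 1.05 and 1.85 CPM with IgG in CD4 cells, and 7.53 and 10.1 CPM with anti-IL-2, against 4.88 and 3.27 CPM with IgG in CD8 cells.

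Of the other 10 genes named from this test, 8 lost the call when 1 library was left out. Foxp3 lost its call without the CD4 IgG library of 181201 (-3.21, adjusted p = 0.0592), without either CD4 anti-IL-2 library (-3.52 and -3.25, adjusted p = 0.0801 and 0.074) and without either CD8 anti-IL-2 library (-3.73 and -3.14, adjusted p = 0.0835 and 0.103). Ccr6 lost its call without the CD4 IgG library of 181212 (1.95, adjusted p = 0.0767) or the CD8 IgG library of 181201 (2.02, adjusted p = 0.0558) and with limma voom (adjusted p = 0.0973). Gpr25 lost its call without the CD8 anti-IL-2 library of 181201 (1.44, adjusted p = 0.0589). Map6 and Klrb1c kept theirs with any of the 8 libraries left out, and lost it without batch as a term (adjusted p = 0.0716 for Map6 and 0.111 for Klrb1c).

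Gzmk lost its call without any 1 of the 4 CD4 libraries (-1.70 to -1.63, adjusted p = 0.074 to 0.113). St6gal1 did so without any 1 of the 8 libraries but the CD4 anti-IL-2 library of 181212 (-2.82 to -2.55, adjusted p = 0.0667 to 0.123). For Ccr9 it was any library but the 2 CD4 anti-IL-2 libraries (1.72 to 2.31, adjusted p = 0.0542 to 0.134). For Erc2 it was any but the CD4 anti-IL-2 library of 181212 (1.60 to 2.17, adjusted p = 0.0651 to 0.199), and for Flt1 any but the 2 IgG libraries of 181201 (1.83 to 2.63, adjusted p = 0.074 to 0.271). Without batch as a term Ccr9 (adjusted p = 0.191), Erc2 (0.0716) and Flt1 (0.0721) did not pass either, nor did Ccr9 (0.0567) and Flt1 (0.118) with limma voom; DESeq2 gave no adjusted p for Erc2 and Flt1. The sign of all 12 differences was the same under every alternative run.

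The readouts of IL-2 signalling were not among the 120 genes. In CD4 cells Il2ra had 60.2 and 61.0 CPM with anti-IL-2, against 238 and 254 CPM with IgG, and the difference between the effects in CD8 and CD4 cells was 0.23 ± 0.16 (adjusted p = 0.86). Cish (-0.18 ± 0.16, adjusted p = 0.925) and Socs2 (-0.75 ± 0.34, adjusted p = 0.6) did not pass either. Gzmb, with 226 and 206 CPM with anti-IL-2, against 684 and 701 CPM with IgG in CD4 cells, gave a difference of 0.52 ± 0.14 (adjusted p = 0.167). A difference that misses the threshold does not show that both cell types responded alike.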

How the data were processed

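For RNA-seq, the stranded KAPA mRNA kit was used on 280 ng of total RNA and 10 PCR cycles, per the labels' protocols. The authors deposited a table of raw counts per gene for all 22 libraries; TopHat2, HTSeq 0.9.1 and the mouse build mm10 are named per the submitters' processing notes. The annotation, the strand setting and any filter are not given in the sources used here, so genes with near-identical copies or an overlapping partner, such as the IFITM genes, are uncertain. Columns were matched to libraries by title.

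From the counts, edgeR 4.0.16 (R 4.3.3) gave trimmed-mean (TMM) scaled CPM and log2 CPM with a prior count of 2, and its quasi-likelihood test with robust dispersion, group and batch as terms, filterByExpr and Benjamini-Hochberg adjustment over all genes tested, at 0.05. The fit of batches 181201 and 181212 used 14 libraries of all 8 groups, which share one estimate of the spread (5 residual degrees of freedom). This and the other fits treated all libraries as independent, whether or not some shared recipients. The labels give each batch 1 library of each spleen group, which makes batch the block of the fit. The fit of all 3 batches used 22 libraries (12 degrees of freedom). The test of batch 190306 against the others gave each of the 4 populations its own batch 190306 shift (5 degrees of freedom), a form chosen after seeing the data. SE is the fold change divided by the root of F. Fits were also run on simulated data with independent libraries and planted changes. That setting does not cover libraries that share animals, and no result here rests on it. The fits rest on 16569598 to 24518362 counts per spleen CD8 library.

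The members and the gene lists were chosen with earlier results of these data known. Rankings by size cover genes whose mean log2 CPM was 2 or more. They leave out clone-type names (Gm, Rik and accession-like) and immunoglobulin or T cell receptor segments. Genes named are the 12 largest changes per direction whose mean log2 CPM was 2 or more with the same sign in both batches, up to 6 members of each list with the smallest p, members that did not pass, a set of IL-2 pathway genes named in every case, and the 6 largest per direction in CD8 against CD4. A few genes that this rule names are not reported here. Promoter windows came from RefSeq. Alternatives were other scaling (DESeq2's size factors), no filter, DESeq2 1.42.0, limma voom 3.58.1, no batch term, smaller sets of libraries, and leaving out each library compared.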

Additional observations from a re-analysis of the deposited data

Results flagged for a closer look

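The size of the treatment effect differed between spleen CD8 and spleen CD4 cells, by a test of the difference itself, for the 12 genes named for that comparison. The effect in CD8 minus that in CD4 cells, on the log2 scale, was 2.28 for Flt1, 2.10 for Ccr6, 1.96 for Ccr9, 1.90 for Erc2, 1.74 for Gpr25 and 1.68 for Map6. It was -3.38 for Foxp3, -2.77 for St6gal1, -2.48 for Esm1, -2.33 for Klrb1c, -1.66 for Gzmk and -1.47 for Tiam1. Esm1 and Tiam1 kept the call under every alternative run, the others lost it under at least 1.

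The treatment effect of batch 190306 differed from that of batches 181201 and 181212 for 2070 genes. For genes of the IL-2 pathway and of the memory and follicular programmes, the effect in 190306 minus that in the others was 3.60 ± 0.20 for Il2ra (SE, adjusted p = 2.29e-06, edgeR), 6.84 ± 0.42 for Socs2 (adjusted p = 3.48e-07), -5.25 ± 0.22 for Tcf7 (adjusted p = 1.03e-06) and -7.31 ± 0.48 for Cxcr5 (adjusted p = 5.49e-05), on the log2 scale. In 190306 each group is 1 library, and what lay behind the difference was not tested. The batches were split because of this reversal, so these p-values are no independent test of it.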

How the results depend on the processing

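In batches 181201 and 181212, the 1587 genes that changed became 1601 with DESeq2's size factors, 1545 without a filter, 1548 with limma voom, 1682 on spleen CD8 libraries alone, 1664 on spleen libraries alone, 1101 without batch as a replicate block and 1041 with DESeq2. DESeq2 shared 992 genes with the main test, all with the same sign. The fit on spleen CD8 libraries alone held only 4 libraries and tested 11640 genes. In it, 6 of the 120 genes examined singly that had changed lost the call, and 7 that had not changed gained one. Leaving out 1 library gave 669 to 954 genes, of which 655 to 902 were shared, all with the same sign. Over all 3 batches every alternative gave 0 genes. The difference of batch 190306 from the others was called for 2070 genes, for 1166 with DESeq2, for 1517 to 1764 with 1 library left out, and for 2384 with one 190306 shift shared by all populations, an alternative added after seeing the data. CD8 against CD4 gave 120 genes, and 91 with limma voom to 154 without a filter. Leaving out 1 of its 8 spleen libraries gave 29 to 74 genes and leaving out the batch term, the replicate block, gave 52, both added after seeing the data. Alternatives were run for 171 genes, of which 120 had changed. Of these 120, 72 had changed under every alternative, 48 lost the call under at least 1, and 0 changed sign. Some genes that had not changed took the other sign under an alternative, such as Il2rg, whose log2 fold change ran from -0.04 to 0.22. The cause of these losses and sign changes was not tested. With 2 libraries per group in batches 181201 and 181212 and 1 in 190306, the number of libraries limits every count, and fewer enter each fit that leaves 1 out. The depth of 16569598 counts or more leaves genes such as Il2, at 0 to 5 counts, without a usable fold.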
